A study of Rattus norvegicus with 18 samples.

Results

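The enzymes described here carry out the late part of cholesterol synthesis, from squalene onwards. They are Sqle, Lss, Cyp51, Tm7sf2, Msmo1, Nsdhl, Hsd17b7, Ebp, Sc5d and Dhcr7, 10 of the 10412 genes that the array names singly. They were chosen by symbol with earlier results of these arrays known, namely their cord signals at 18 and 30 months against 6 months, so those values are given as a description. Their 14 probe sets stand among 15923 on the array, and 12 of them, from 9 genes, were bright enough to be tested among 9482. Nsdhl and a second probe set of Lss were too dim, and their signals are given without being counted. The study asked how ageing alters transcripts in the rat oculomotor nucleus, whose motor neurons in the midbrain drive most eye muscles, and in the spinal cord. The 6 groups were oculomotor nucleus and spinal cord, each from rats of 6, 18 and 30 months, with 3 Affymetrix RA230 arrays per group. A label on 2 of the samples gives the animals of all ages and both tissues as F344BN rats, and no treatment is named for any group. Each array carried a pool of RNA from 4 animals, so p-values measure the spread between pools and not between animals. The submitters' design text speaks of 4 replicates per group, whereas the labels list 3, and the labels were followed.

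Squalene is the open-chain hydrocarbon from which sterols are built. Sqle and Lss close it into lanosterol, and the remaining enzymes strip off methyl groups and move or remove double bonds until cholesterol is made. Neural tissue makes nearly all of its own cholesterol, because lipoproteins of the blood do not cross the blood-brain barrier, and much of it goes into myelin. In mammalian cells these genes are known targets of the sterol-sensing transcription factor SREBP-2, which works with NF-Y and Sp1 at many of their promoters.

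The promoters of Lss, Msmo1 and Cyp51 are shown because these genes had a probe set past the test in the 18-month cord and their windows end where the annotated gene starts. Each run is the 250 bases before the start in RefSeq's rat build GRCr8, written 5′ to 3′ on the gene's strand, and capitals mark every match to CCAAT, the core bound by NF-Y, or GGGCGG, the core bound by Sp1, on either strand. The windows are chr20:12118231-12118480 on the minus strand for Lss, chr16:29746863-29747112 on the plus strand for Msmo1 and chr4:30991443-30991692 on the plus strand for Cyp51.
Lss: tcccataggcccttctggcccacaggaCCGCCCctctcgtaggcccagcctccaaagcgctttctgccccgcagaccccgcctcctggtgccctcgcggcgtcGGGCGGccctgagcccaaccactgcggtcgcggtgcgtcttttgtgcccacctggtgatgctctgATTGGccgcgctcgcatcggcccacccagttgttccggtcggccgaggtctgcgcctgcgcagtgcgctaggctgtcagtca
Msmo1: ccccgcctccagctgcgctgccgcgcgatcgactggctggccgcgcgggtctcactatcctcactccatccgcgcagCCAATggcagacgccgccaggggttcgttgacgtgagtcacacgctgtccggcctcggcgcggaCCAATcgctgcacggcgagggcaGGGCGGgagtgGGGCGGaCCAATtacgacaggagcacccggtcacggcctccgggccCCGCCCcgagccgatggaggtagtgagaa
Cyp51: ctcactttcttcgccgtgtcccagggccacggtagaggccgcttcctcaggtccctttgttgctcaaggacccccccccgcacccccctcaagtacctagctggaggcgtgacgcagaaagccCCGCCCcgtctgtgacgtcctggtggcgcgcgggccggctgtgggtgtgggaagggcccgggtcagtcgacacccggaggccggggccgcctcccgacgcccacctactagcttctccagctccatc

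In these windows Msmo1 held 3 matches to CCAAT and 3 to GGGCGG, Lss held 1 and 2, and Cyp51 held 0 and 1. The windows of Tm7sf2, Hsd17b7, Ebp and Nsdhl run into the annotated gene and are counted as they stand. Among the 9 enzymes with a window in the table, 7 held CCAAT, against 34.0% of 33469 rat promoter windows of the same length. GGGCGG was present in 8 of the 9 windows, against 30.5% of all. The sterol regulatory element core TCACNCCAC was in 0 of the 9 windows and in 0.97% of all. The 3 motifs were searched on both strands, no match to one overlaps a match to another in the 3 windows shown, and a match describes letters only. The 10 genes lie on 8 chromosomes. In GRCr8, Sqle spans chr7:92758175-92773049, Lss chr20:12090641-12118230, Cyp51 chr4:30991693-31010147 and Ebp chrX:16971372-16977782.

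Signals are the deposited array intensities on a linear scale, with a common trimmed mean near 500.1 on every array. Tissue labels were checked with marker genes. Th, the rate-limiting enzyme of dopamine synthesis, read 1882 to 2893 on oculomotor arrays and 55.4 to 138 on cord arrays, and Hoxa5, a spinal identity gene, read 8.30 to 108 on oculomotor arrays and 750.0 to 1097 on cord arrays. Chat, the acetylcholine-synthesising enzyme of motor neurons, read 96.8 to 191 on oculomotor arrays and 316 to 438 on cord arrays. In a component analysis of deviations from the group means, 4 arrays, picked in an earlier analysis of these data, shared strongly negative scores on the first component, -16.6 to -12.1. One was replicate 3 of the 30-month oculomotor nucleus, and the others were replicate 1 of the 6-month cord and replicate 3 of both older cord groups. Replicate 2 of the 30-month oculomotor nucleus lay as far out on the opposite side, at 14.2, and is left out only in the fits without 1 array. Skeletal muscle transcripts were abundant on 3 cord arrays: the summed signal of 5 muscle genes was 3707 and 6993 on replicates 1 and 2 of the 6-month cord and 3014 on replicate 2 of the 18-month cord, against 553 to 1121 on the other 6 cord arrays. Some counts that rest on these arrays are also given without them. The cord count at 30 against 6 months is not given without the muscle-rich arrays.

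In the 18-month cord all 9 tested enzymes read lower than in the 6-month cord, by 1.29-fold (Hsd17b7) to 2.02-fold (Ebp) in fitted signal, as 50.5% of all tested probe sets did. Of the 9, 4 fell past the test, Sqle, Lss, Msmo1 and Ebp, where 0.19% of all probe sets passed as lower. In the 30-month cord all 9 again read lower than at 6 months and 0 passed, where 0.0527% of all passed as lower. In the oculomotor nucleus 0 of 9 passed at either later age, where 0% of all probe sets passed at 18 months and 0.211% at 30 months. Median log2 differences there were -0.14 at 18 months and -0.06 at 30 months. No enzyme passed in the direct test of the tissue difference in the change with age, where 0% of all probe sets passed. Between the tissues at 6 months all 9 enzymes passed as lower in the oculomotor nucleus, where 13.4% of all probe sets did, with a median of -0.62, and the median gap was -0.21 at 18 months and -0.19 at 30 months. The test was limma's moderated test, 2-sided, with Benjamini-Hochberg adjustment over all 9482 probe sets, and an adjusted p under 0.05 counts as passing.

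**Figure D1:**
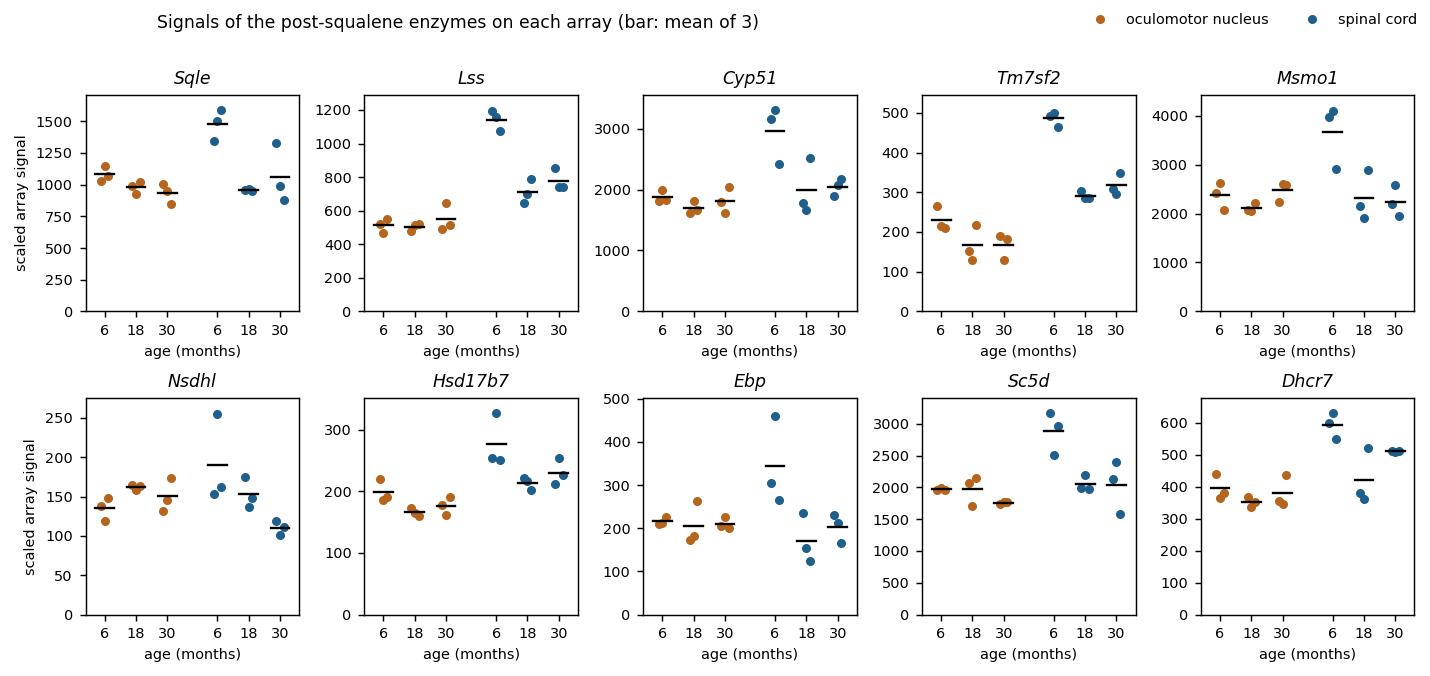
Signal (linear scale) of each enzyme on every array by age in months, with oculomotor nucleus left of spinal cord in each panel and a bar at the mean of the 3 arrays of a group. Cord arrays of 6 months lie highest in most panels, as for Lss, which read 1076 to 1193 there and 469 to 853 on all other arrays.

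Sqle, squalene epoxidase, adds oxygen to squalene and is a rate-controlling step of the pathway. Its oculomotor signals were 1029, 1144 and 1072 in the 6-month pools, 986, 929 and 1024 in the 18-month pools and 1003, 946 and 848 in the 30-month pools. In the cord it read 1343, 1503 and 1590.2 in the 6-month pools, 961, 962 and 947 in the 18-month pools and 1325, 992 and 875 in the 30-month pools. All 3 cord arrays of 18 months and all 3 of 30 months lay below those of 6 months, while replicate 1 of the 30-month cord lay close to them. On the log2 scale the cord difference was -0.62 (SE 0.12, adjusted p = 0.0188) at 18 months and -0.49 (SE 0.12, adjusted p = 0.1) at 30 months, each against 6 months. Older oculomotor arrays also lay below those of 6 months without overlap, with differences of -0.14 at 18 months and -0.22 at 30 months, and neither difference passed (adjusted p = 1 and 0.668).

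Lss, lanosterol synthase, closes the ring system of the sterol. Oculomotor arrays of its brighter probe set gave 521, 469 and 549.6 in the 6-month pools, 479, 517 and 521 in the 18-month pools and 491, 646 and 516 in the 30-month pools. Its cord signals were 1193, 1159 and 1076 in the 6-month pools, 648, 697 and 787 in the 18-month pools and 853, 740.0 and 742 in the 30-month pools. The 6-month cord arrays stood above every other array of either tissue. The difference in the cord was -0.69 (SE 0.12, adjusted p = 0.00548) at 18 months and -0.56 (SE 0.12, adjusted p = 0.0515) at 30 months. Oculomotor arrays overlapped between ages, with -0.02 at 18 months and 0.10 at 30 months. Lss passed at 18 months when any 1 of the 6 cord arrays compared was left out, except replicate 1 of 18 months (adjusted p = 0.0527). Cord signals of the second probe set, under the brightness limit, were 177, 164 and 291 in the 6-month pools, 41.1, 65.5 and 36.9 in the 18-month pools and 71.9, 57.4 and 16.2 in the 30-month pools. All its 18-month cord arrays lay under the floor of 66.4 that was set on low signals, so no fold is given for it.

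Cyp51 removes a methyl group from lanosterol. Its brighter probe set is of a kind that may match several transcripts. Oculomotor signals were 1808, 1985 and 1829 in the 6-month pools, 1617, 1812 and 1658 in the 18-month pools and 1787, 1608 and 2049 in the 30-month pools. Spinal cord arrays gave 3164, 3300.2 and 2411 in the 6-month pools, 1772, 1669 and 2516 in the 18-month pools and 1900.0, 2078 and 2165 in the 30-month pools. One 18-month cord array, replicate 3, lay inside the range of the 6-month arrays, and it is 1 of the arrays that stood apart. The difference in the cord was -0.59 (SE 0.14, adjusted p = 0.0632) at 18 months and -0.52 (SE 0.14, adjusted p = 0.146) at 30 months. Cord signals of the second probe set were 1112, 1258 and 970.5 in the 6-month pools, 712, 681 and 725 in the 18-month pools and 728, 796 and 672 in the 30-month pools. They did not overlap between 6 months and either later age. This probe set passed at both ages, with -0.65 (SE 0.10, adjusted p = 0.00468) at 18 months and -0.60 (SE 0.10, adjusted p = 0.0142) at 30 months.

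Tm7sf2 encodes a sterol reductase that removes the double bond left by Cyp51. Oculomotor arrays gave 264, 216 and 209 in the 6-month pools, 152, 129.6 and 218 in the 18-month pools and 191, 128 and 184 in the 30-month pools. The cord values were 492, 501 and 465 in the 6-month pools, 303, 286 and 287 in the 18-month pools and 309, 295 and 349 in the 30-month pools. The 6-month cord arrays stood clear of both later ages, which overlapped each other. The cord difference, -0.74 (SE 0.18, adjusted p = 0.0663) at 18 months and -0.62 (SE 0.18, adjusted p = 0.171) at 30 months, did not pass at either age. Among oculomotor differences Tm7sf2 had the lowest value of the 9 enzymes at both later ages, -0.49 at 18 months and -0.47 at 30 months (adjusted p = 1 and 0.486).

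Msmo1, the sterol methyl oxidase, starts the removal of the remaining methyl pair. Its oculomotor signals were 2428, 2621 and 2071 in the 6-month pools, 2078, 2059 and 2226 in the 18-month pools and 2239.9, 2600.2 and 2593 in the 30-month pools. In the cord it read 3980.1, 4108 and 2920.4 in the 6-month pools, 2149, 1900.4 and 2897 in the 18-month pools and 2202, 2576 and 1950.3 in the 30-month pools. Replicate 3 of the 18-month cord (2897) lay next to replicate 3 of the 6-month cord (2920.4), and the other arrays of the older ages were lower than both. The cord difference was -0.67 (SE 0.15, adjusted p = 0.0462) at 18 months and -0.70 (SE 0.15, adjusted p = 0.0643) at 30 months. Without the 3 muscle-rich cord arrays the 18-month difference of Msmo1 was -0.23 (adjusted p = 0.682), while Sqle gave -0.74, Lss -0.59 and Ebp -0.64 in that fit, none of them past the test.

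Nsdhl and Hsd17b7 complete that removal as a decarboxylating dehydrogenase and a ketoreductase. Nsdhl was under the brightness limit. Its oculomotor arrays read 138, 119 and 148 in the 6-month pools, 165, 159 and 163 in the 18-month pools and 131, 146 and 173 in the 30-month pools. Cord arrays gave 154, 255 and 162 in the 6-month pools, 175, 136 and 148 in the 18-month pools and 119, 102 and 111 in the 30-month pools. All its 30-month cord arrays lay below those of 6 months, while those of 18 months overlapped them. With no brightness limit, the fit gave Nsdhl a cord difference of -0.28 (adjusted p = 0.64) at 18 months and -0.75 (adjusted p = 0.138) at 30 months. Its oculomotor differences were above 0, at 0.27 at 18 months, without overlap, and 0.15 at 30 months. Oculomotor nucleus minus cord was -0.46 at 6 months, 0.09 at 18 months and 0.435 at 30 months. None of these values passed. Cord signals of Hsd17b7 were 254, 327 and 251 in the 6-month pools, 221, 217 and 203 in the 18-month pools and 211, 254 and 226 in the 30-month pools. All 18-month arrays lay below the 6-month arrays, and 1 array of 30 months lay inside their range. Its difference was -0.37 (SE 0.14, adjusted p = 0.342) at 18 months and -0.26 (SE 0.14, adjusted p = 0.545) at 30 months, the smallest of the 9 at 18 months. The second Hsd17b7 probe set gave -0.42 and -0.42, and neither value passed. Oculomotor signals of Hsd17b7 were 220.2, 186 and 191 in the 6-month pools, 174, 164 and 160.5 in the 18-month pools and 178, 161 and 190.5 in the 30-month pools.

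Ebp, the sterol isomerase, shifts a double bond within the ring. Signals in the oculomotor nucleus were 209, 213 and 226 in the 6-month pools, 174, 182 and 262 in the 18-month pools and 205, 226 and 202 in the 30-month pools. In the spinal cord it read 304, 461 and 266 in the 6-month pools, 236, 154 and 124 in the 18-month pools and 229.9, 212 and 165 in the 30-month pools. Replicate 2 of the 6-month cord was well above the other 2 arrays of its group, and all 3 lay above every older cord array. The difference was -1.02 (SE 0.23, adjusted p = 0.0462) at 18 months and -0.74 (SE 0.23, adjusted p = 0.209) at 30 months, and without that replicate it was -0.79 (adjusted p = 0.192) at 18 months.

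Sc5d, the sterol desaturase, and Dhcr7, the sterol reductase deficient in Smith-Lemli-Opitz syndrome in humans, act last. Oculomotor arrays of the brighter Sc5d probe set gave 1960.5, 1992 and 1956 in the 6-month pools, 2061, 1703 and 2149 in the 18-month pools and 1742, 1768 and 1769.8 in the 30-month pools. Its cord values were 3163, 2513 and 2968 in the 6-month pools, 1988, 2194 and 1977 in the 18-month pools and 2123, 2404 and 1574 in the 30-month pools. The 6-month cord arrays again lay above both later ages, with differences of -0.48 (SE 0.13, adjusted p = 0.0997) at 18 months and -0.52 (SE 0.13, adjusted p = 0.103) at 30 months. The second Sc5d probe set gave -0.31 and -0.23, smaller in size. Oculomotor signals of Dhcr7 were 439, 365 and 379.9 in the 6-month pools, 366, 336 and 353 in the 18-month pools and 355, 346 and 437 in the 30-month pools. The cord arrays read 598, 629.7 and 547 in the 6-month pools, 381, 362 and 520.2 in the 18-month pools and 512, 508 and 511 in the 30-month pools. Its 18-month cord difference was -0.51 (SE 0.13, adjusted p = 0.0997), and its 30-month difference was -0.21 (SE 0.13, adjusted p = 0.627), the smallest of the 9 at that age.

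In 8 of the 9 enzymes the 18-month cord arrays lay below those of 6 months without overlap, as in 6.7% of all probe sets, and the median of the 9 was -0.62, against -0.0018 for all probe sets. At 30 months all 9 values were below 0, as were 49.6% of all, and the groups did not overlap for 8 of 9 (Hsd17b7 was the exception), as in 6.38% of all. Of the 9, 7 had an unadjusted p under 0.05 by limma, where 10.7% of all had, and the median was -0.52. These cord counts were in view when the enzymes were listed, and both use the same 6-month arrays. At 18 months, leaving out 1 array at a time left 2 enzymes past the test without cord 6 months replicate 1, 1 without cord 6 months replicate 2, 1 without cord 18 months replicate 1 and 1 without cord 18 months replicate 2. Without cord 18 months replicate 3 it was 5, and it was also 5 without the 4 arrays that stood apart, a setting chosen after seeing the data, in which Sqle, Lss, Cyp51, Msmo1 and Dhcr7 passed and Ebp did not (adjusted p = 0.114). The count was 0 of 9 without the 3 muscle-rich arrays, which leaves 1 array at 6 months, whose spread is then taken from the other groups, and 7 of 9 with the 4 arrays that stood apart as a block. At 30 months it was 3 without cord 6 months replicate 3, 1 without cord 30 months replicate 1, 0 without the 4 arrays and 4 with them as a block. It was also 3 (Sqle, Lss and Msmo1) with a block for replicate numbers shared by the tissues at 30 months, an alternative added after seeing the data. The number of all probe sets passing also changed with the setting, so these counts do not describe the enzymes alone.

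**Figure D2:**
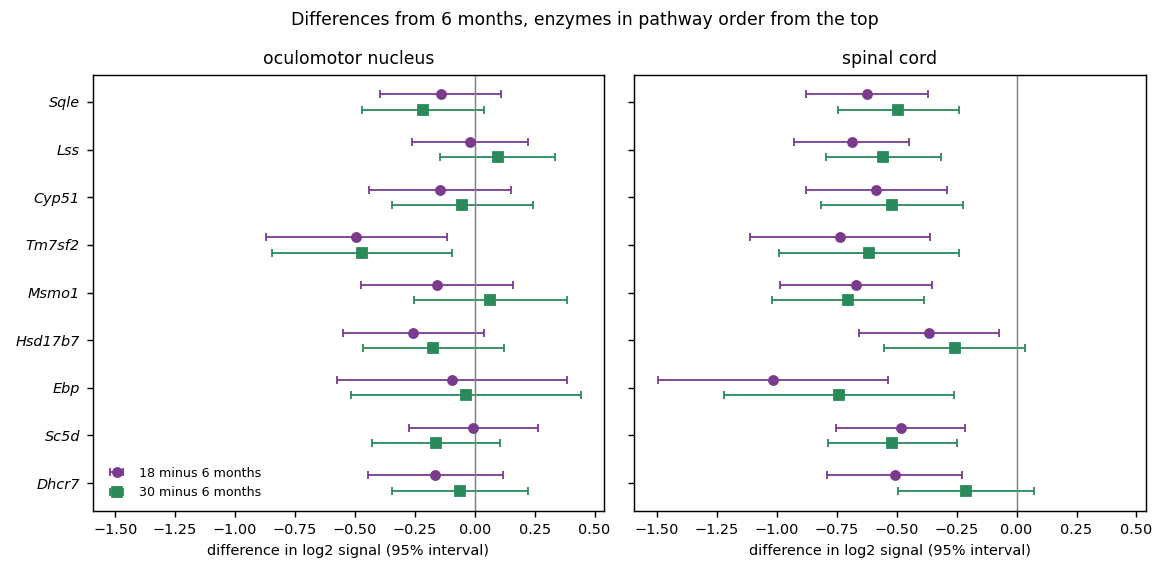
Difference in log2 signal of each tested enzyme at 18 and at 30 months against 6 months, with 95% confidence intervals, in the oculomotor nucleus (left) and the spinal cord (right). All 18 cord values lie below 0, with medians of -0.62 at 18 months and -0.52 at 30 months, and the oculomotor medians are -0.14 and -0.06.

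Between the cord at 30 months and at 18 months no enzyme passed. Differences ran from -0.03 (Sc5d) to 0.30 (Dhcr7), the median was 0.12, and every adjusted p was 1. By limma 1 of the 9 had an unadjusted p under 0.05, where 2.14% of all probe sets had, and 0.0105% of all passed after adjustment. Over all 3 ages of the cord together, limma's F test passed for Lss (adjusted p = 0.00962) and Sqle (adjusted p = 0.0381), 2 of 9, where 0.411% of all probe sets passed. That count uses the brightest probe set of each gene. In the same F test the second Cyp51 probe set passed (adjusted p = 0.00608) and the brighter one did not (adjusted p = 0.101).

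Marker genes of other cell types were summed on the same cord arrays. Summed signals of the 8 myelin genes on the array, of 10 listed (Mbp, Mog, Mag, Mobp, Cnp, Mal, Cldn11 and Ugt8) had a low of 44947, a median of 53776 and a high of 58086 in the 6-month cord, 41580, 41989 and 55180 in the 18-month cord, and 40295, 41465 and 53137 in the 30-month cord. None of the 8 passed at 18 months, 6 of 8 were below 0 and their median was -0.21. Summed microglial signal over 8 of 8 listed genes, lay in the range 9325 to 10799 for the 6-month cord, 13937 to 14510 for the 18-month cord and 11689 to 18041 for the 30-month cord. Of 7 tested microglial genes 2 rose at 18 months, P2ry12 (0.63, adjusted p = 0.0462) and Fcer1g (0.69, adjusted p = 0.00502), where 0.538% of all probe sets passed as higher. The muscle sum, over 5 of 6 listed genes, lay in the range 553 to 6993, 554 to 3014 and 589 to 742 in the same order of ages, and 2 of 4 listed Schwann cell genes summed to 406 to 653, 284 to 503 and 276 to 394 at those ages. Summed signals of 3 of 6 listed oligodendrocyte genes ran over 5403 to 5509, 4847 to 5633 and 4920 to 5456. The part of these cell types in the enzyme differences was not tested, and in bulk tissue fewer cells of a type and less RNA per cell cannot be told apart. With the muscle genes as a covariate 2 of 9 enzymes passed at 18 months, and with the myelin genes as a covariate the count at 30 months was 4 of 9. The share of all probe sets passing in these fits is not given. The median difference of the 9 at 18 months lay between -0.71 and -0.58 in the 16 other settings tried, these covariates and the fit without the muscle-rich arrays included, and between -0.73 and -0.54 when 1 array was left out. Single enzymes moved more without the muscle-rich arrays, a fit with 1 array at 6 months. The smallest falls were then Cyp51 (-0.19), Msmo1 (-0.23), Hsd17b7 (-0.24) and Dhcr7 (-0.30). Sqle (-0.74) and Sc5d (-0.58) fell further than with all arrays.

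In the oculomotor nucleus, 0 of 9 enzymes passed at 18 months against 6 months, where 0% of all probe sets passed, and 1 of 9 had an unadjusted p under 0.05 by limma, where 3.39% of all had. All 9 values were below 0, as were 50.9% of all, and they ran from -0.49 (Tm7sf2) to -0.01 (Sc5d), with a median of -0.14. At 30 months against 6 months, 0 of 9 passed, where 0.211% of all did, and 1 of 9 had an unadjusted p under 0.05, where 8.12% of all had. There 7 of 9 values were below 0, as were 49.8% of all, from -0.47 (Tm7sf2) up to 0.10 (Lss), and the median was -0.06. The groups did not overlap for 2 enzymes at 18 months (Sqle and Hsd17b7), where 7.26% of all probe sets were lower without overlap, and for 3 at 30 months (Sqle, Tm7sf2 and Sc5d), where 7.21% were. At 30 months against 18 months 0 of 9 passed, where 0.0105% of all did, values ran from -0.16 (Sc5d) to 0.22 (Msmo1), and 0 of 9 had an unadjusted p under 0.05, where 4.71% of all had. Among marker genes of other cell types, Igf2 (-1.13, adjusted p = 0.00904), Slc13a4 (-1.05, adjusted p = 0.00398) and Col1a1 (-1.33, adjusted p = 0.0159) of choroid plexus and meninges fell at 30 months against 6 months and the microglial Fcer1g rose (0.57, adjusted p = 0.0466), and their part in the enzyme values was not tested. With F tests over all 3 ages, 0 of 9 passed, where 0.0844% of all did.

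At 6 months the oculomotor nucleus read lower than the cord for all 9 enzymes, each past the test and without overlap between the tissues. Of all probe sets 20.4% were lower without overlap. These counts use the brightest probe set of each gene. The second Sc5d probe set was lower without overlap but did not pass (-0.23, adjusted p = 0.138). The second probe sets of Cyp51 (-0.62) and Hsd17b7 (-0.70) passed. Lss had the largest gap, 2.23-fold or -1.16 (SE 0.12, adjusted p = 5.58e-07) on the log2 scale, followed by Tm7sf2 at 2.12-fold or -1.09 (SE 0.18, adjusted p = 0.000169). The other 7 lay between -0.65 for Cyp51 and -0.45 for Sqle, and Ebp was nearest to the threshold (adjusted p = 0.0493). The median was -0.62, against 0.01 for all probe sets. The 6-month cord arrays in this comparison are those of the cord age comparisons, so neither set of values is independent of the other. Without the 3 muscle-rich arrays 4 of 9 passed, without the 4 arrays that stood apart 9 of 9 passed, and with muscle or myelin genes as a covariate 5 of 9 passed in each case. The share of all probe sets passing in those fits is not given. With all arrays, 4 of 8 myelin genes (Mog, Mag, Cnp and Ugt8) also passed as lower in the oculomotor nucleus, with a median of -0.38 over the 8. So did 2 of 3 oligodendrocyte, 6 of 7 microglia, 2 of 2 muscle, 3 of 3 motor neuron, 4 of 5 choroid plexus and meninges and 3 of 6 astrocyte genes tested. Of all probe sets 13.4% passed as lower, and 1 astrocyte gene passed as higher. The hexokinase control's 3′ to 5′ signal ratio was 1.57 to 1.64 on oculomotor arrays and 1.93 to 2.12 on cord arrays of 6 months, and that of the beta-actin control was 1.25 to 1.36 on oculomotor arrays and 0.98 to 1.26 on cord arrays. The part of cell type content and of RNA integrity in the gap was not tested.

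At the later ages the gap remained past the test for Lss and Tm7sf2. At 18 months these were 2 of 9, at -0.49 (SE 0.12, adjusted p = 0.00357) and -0.84 (SE 0.18, adjusted p = 0.00155), where 13.9% of all probe sets passed as lower, and the median of the 9 was -0.21. At 30 months 3 of 9 passed, Lss at -0.51 (SE 0.12, adjusted p = 0.00355), Tm7sf2 at -0.94 (SE 0.18, adjusted p = 0.00077) and Dhcr7 at -0.44 (SE 0.13, adjusted p = 0.026), where 11.3% of all passed as lower, and the median was -0.19. Ebp and Msmo1 read slightly higher in the oculomotor nucleus at 30 months, 0.07 and 0.15, with overlapping arrays and without passing. The tissue order of Lss and Tm7sf2 was the same at every age, with no overlap between tissues at any of the 3. On the brighter Hsd17b7 probe set the tissues did not overlap at any age either, at -0.36 (adjusted p = 0.0652) at 18 months and -0.38 (adjusted p = 0.0579) at 30 months. The second Hsd17b7 probe set passed at 18 months (-0.70, adjusted p = 0.00822) and overlapped at 30 months (-0.30, adjusted p = 0.271). Dhcr7 at 30 months no longer passed when any 1 of 5 arrays was left out.

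**Figure D3:**
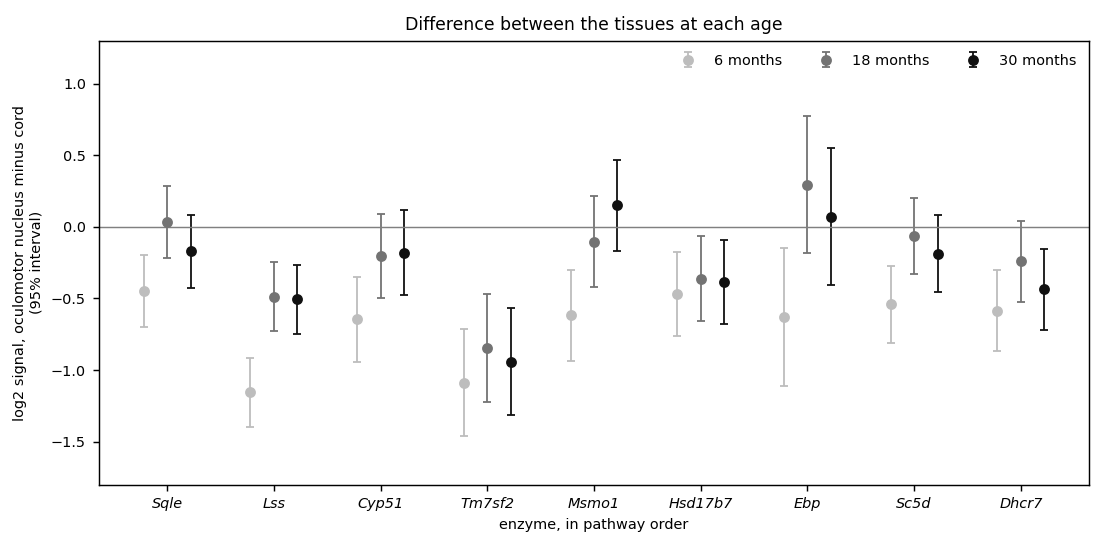
Log2 signal of the oculomotor nucleus minus the cord for each tested enzyme at 6, 18 and 30 months, with 95% confidence intervals. The 6-month values all lie below 0 with a median of -0.62, and the intervals of Lss, Tm7sf2 and Hsd17b7 lie below 0 at all 3 ages.

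The difference between the tissues in their change with age was tested directly as the oculomotor change minus the cord change. From 6 to 18 months it was above 0 for all 9 enzymes, from 0.11 (Hsd17b7) to 0.92 (Ebp), with a median of 0.48, against -0.0047 for all probe sets, of which 51% lay below 0. None passed, with adjusted p between 0.758 and 0.983, and 0% of all probe sets passed. By limma 6 of the 9 had an unadjusted p under 0.05, where 5.07% of all had. Lss had the smallest p, at 0.67 with a 95% interval of 0.33 to 1.01. From 6 to 30 months all 9 were above 0, from 0.08 (Hsd17b7) to 0.77 (Msmo1), with a median of 0.36, where 50.3% of all lay below 0. None passed (adjusted p 0.665 to 0.966), and 0% of all probe sets did. There 4 of 9 had an unadjusted p under 0.05, where 5.47% of all had. The cord age values of these enzymes enter this test, so a positive direction was partly fixed by how they were listed. Without the 3 muscle-rich arrays the median from 6 to 18 months was 0.17.

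Across the 9 cord arrays the enzymes varied together. Pearson's r of log2 signal over the 36 pairs had a median of 0.73, from 0.44 (Sc5d with Dhcr7) to 0.94 (Cyp51 with Msmo1), and no pair was negative. In the oculomotor nucleus the median was 0.22, from -0.40 (Lss with Cyp51) to 0.86 (Hsd17b7 with Dhcr7), and 14 of 36 pairs were negative. After each group's mean was removed, the median was 0.06 in the cord and 0.12 in the oculomotor nucleus, with 16 of 36 pairs negative in each. The 9 arrays of a tissue share their scaling, 3 ages and a few arrays that stand apart, so these values are descriptions. The likeness in the cord lay mostly in the step between 6 months and the later ages, and little of it was left within a group. That step was known when the enzymes were listed, so positive values of r in the cord were partly fixed by the listing. The contrast with the oculomotor nucleus is therefore no independent result. Within cord groups Cyp51 and Dhcr7 stayed closest (r = 0.92), while Tm7sf2 and Sc5d ran opposite to each other (r = -0.86).

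**Figure D4:**
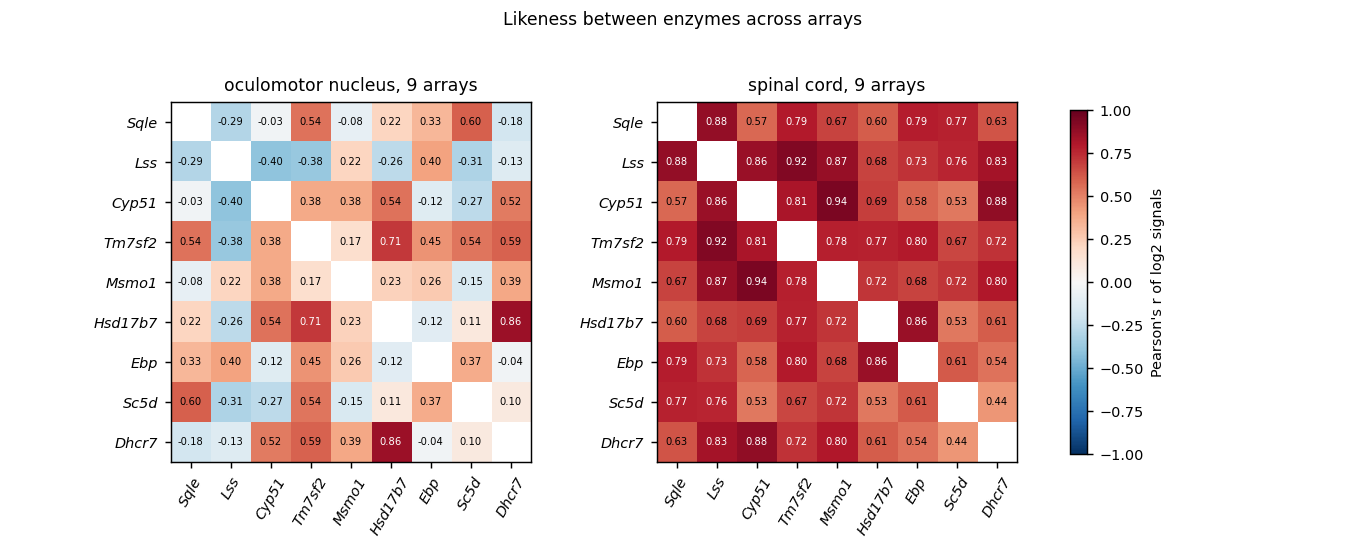
Pearson's r of log2 signal between each pair of enzymes over the 9 arrays of the oculomotor nucleus (left) and the 9 of the spinal cord (right), on a scale from -1 to 1. Every cord pair lies between 0.44 and 0.94, while 14 of the 36 oculomotor pairs are negative.

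The 10 other genes most like the mean of the 9 enzymes, by Pearson's r over the 18 arrays after centring on tissue, were Mrpl37 (0.87), Cend1 (0.86), Pfkm (0.86), Acss2 (0.86), Susd4 (0.86), Slco3a1 (0.85), Sema4d (0.83), Vhl (0.83), Aacs (0.82) and Gnb2 (0.82), of 6949 genes compared. Acss2 and Aacs, which make acetyl-CoA and acetoacetyl-CoA in the cytosol, feed lipid synthesis, and were the only 2 of the 10 on any list used here. Over cord arrays alone, r for the 10 ran from 0.85 (Vhl) to 0.95 (Cend1). Over oculomotor arrays alone it ran from -0.31 (Aacs) to 0.86 (Vhl), with Gnb2 at 0.11, Pfkm at 0.15 and Acss2 at 0.52. The cord step known when the enzymes were listed enters these values. Within each group's own mean the values were lower for 9 of the 10, for example 0.16 for Acss2 and 0.39 for Mrpl37, with Vhl at 0.84 as the exception.

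The steps before squalene were covered by 7 genes on the array of a list of 10. In the cord at 18 months against 6 months all 7 were below 0, with a median of -0.39, and 1 passed as lower, where 0.19% of all probe sets did. That gene was Acat2, the cytosolic thiolase that joins acetyl-CoA units, with a mean signal of 683 at 18 months and 1087 at 6 months (-0.68, adjusted p = 0.0244). The other 6, from Mvk to Fdft1 in the pathway, lay between -0.45 (Fdps) and -0.30 (Fdft1), none past the test. At 30 months all 7 were again below 0 and none passed, with a median of -0.28. None passed in the oculomotor nucleus at either age, with medians of -0.12 at 18 months and -0.18 at 30 months.

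Among 8 regulators of sterol synthesis and uptake that were tested, Srebf1, which encodes the SREBP-1 factors that act chiefly on fatty acid genes, rose in the 18-month cord, with a mean signal of 1342 against 830 at 6 months (0.69, adjusted p = 0.00648). Srebf2, which encodes SREBP-2, averaged 1110 at 18 months and 1362 at 6 months (-0.29, adjusted p = 0.577), and Insig1, a sterol-regulated anchor of SREBP, averaged 1423 at 18 months and 1880 at 6 months (-0.39, adjusted p = 0.474). Both overlapped between the ages. The median of the 8 was -0.01. Of 5 genes of sterol export and turnover none passed, all 5 were above 0 and the median was 0.15, with Npc2, a lysosomal cholesterol carrier, at 0.39 (adjusted p = 0.188), Abcg1 at 0.15, Cyp27a1 at 0.25 and Lcat at 0.04. Of 4 further genes that serve the late steps none passed, with Pgrmc1 at 0.23, the reductase Lbr at 0.11, Cyb5r3 at -0.04 and the electron donor Por at -0.00034.

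Fatty acid synthesis had 11 tested genes, of which 3 fell in the 18-month cord against 6 months, where 0.19% of all probe sets passed as lower, and 9 were below 0, with a median of -0.21. Acss2 averaged 1225 at 18 months and 1885 at 6 months (-0.62, adjusted p = 0.00607). Aacs averaged 332 at 18 months and 512 at 6 months (-0.62, adjusted p = 0.038), and the desaturase Scd 532 at 18 months and 865 at 6 months (-0.69, adjusted p = 0.0483). At 30 months Acss2 (-0.60) and Aacs (-0.77) passed again, both with adjusted p = 0.0142. Fasn, the fatty acid synthase itself, averaged 2573 at 18 months and 2993 at 6 months (-0.21, adjusted p = 0.556), with overlapping arrays. No gene of these lipid lists passed in the oculomotor nucleus at either later age. These lists were written with the cord results known, and their counts add no independent support.

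**Figure D5:**
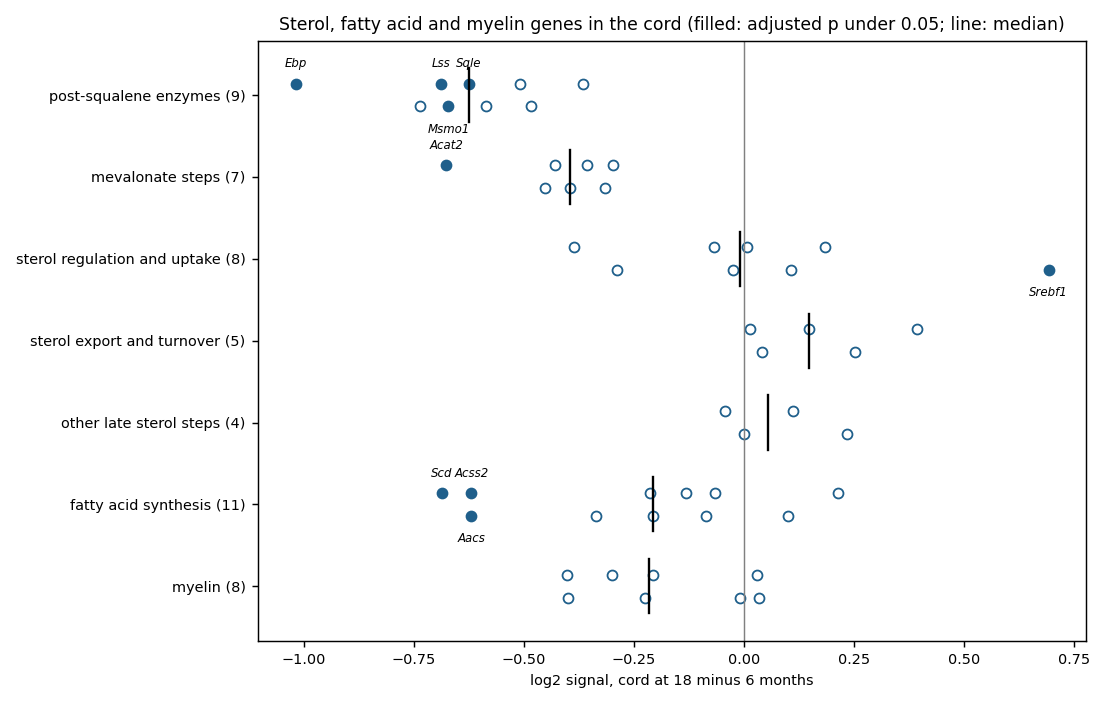
Difference in log2 signal of the cord at 18 months minus 6 months for each tested gene of the post-squalene enzymes, 5 other lipid lists and myelin, with a line at each list's median and filled points for adjusted p under 0.05. The medians are -0.62 for the post-squalene enzymes, -0.39 for the mevalonate steps and -0.21 for both fatty acid synthesis and myelin.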

How the data were processed

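The authors summarised each probe set of each array with Microarray Suite 5.0, per the series' design text, and deposited linear intensity values. The scaling was read from the values: a 2% trimmed mean of 500.08 to 500.10 on every array. Detection calls and probe-level data were not used here, so the study's difference calls could not be remade. Signals were brought to 1 common trimmed mean, raised to the pooled 20th percentile (66.4) and log2-transformed, and probe sets with a mean log2 above the pooled 40th percentile (7.46) were kept after removal of 57 controls. Between 18% and 21% of probe sets per array lay at or under the floor, and 3 arrays per group limit the precision.

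Probe sets were named from the platform annotation, with symbols updated through RefSeq, and 12789 named 1 gene. With limma 3.58.1 (R 4.3.3), 1 model with a mean per group and a mean-variance trend covered the 18 arrays together (12 residual degrees of freedom, 18.8 with the prior), and the script was checked on simulated data. Every enzyme is named with all its probe sets, and the brightest one represents it. From each other list the genes past the test within a tissue at 18 or 30 months against 6 months are named, or, where none passed, up to 4 with the smallest p, and other comparisons are given as counts. Srebf2, Insig1 and Fasn were named in addition, after their values were seen. The enzymes, lists and tests were chosen with earlier results of these data known. Deviations of same-numbered replicates correlated over 0.1 in 0 of 9 pairs of ages in the oculomotor nucleus, 2 of 9 in the cord and 3 of 9 between tissues. The last were the 3 pairs at 30 months (0.121, 0.235 and 0.501). The labels do not say whether the pools of both tissues share animals. The model had no block, and fits with one were alternatives. Figures and motif counts used Python 3.11.15. The alternatives tried were other scalings, floors, filters and variance models, separate fits, blocks, covariates, the study's rule in part, averaged probe sets and leaving out arrays.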

Additional observations from a re-analysis of the deposited data

How the results depend on the processing

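None of the medians turned its sign, nor did any of the 32 single-enzyme differences refitted, which cover the cord at 18 and at 30 months against 6 months, the tissues at 6 months and the calls between tissues at the later ages. Single-enzyme age differences in the oculomotor nucleus and tissue differences in the change with age were not refitted. Of the 9 enzymes tested, 4 passed in the cord at 18 months, and the count was 2 with no filter, 2 when the tissues were fitted apart, 2 with the muscle genes as a covariate, 7 with a block for the 4 deviating arrays, 0 without the 3 muscle-rich cord arrays and 1 by the study's rule in part (all 9 pairwise differences one way and a mean fold over 1.7); leaving out 1 array gave 1 to 5. At 30 months, where 0 of 9 passed, it was 1 with quantile normalization, median centring or a pseudocount of 16, 4 with the 4 arrays as a block, 4 with the myelin covariate, 2 with probe sets averaged and 0 to 3 without 1 array. For any age difference within the cord (2), the count was 1 with no filter, 1 with no mean-variance trend, 0 in separate fits, 5 with the 4 arrays as a block, 5 without them, 0 without the muscle-rich arrays, 0 with the muscle covariate, 4 with probe sets averaged and 0 to 5 without 1 array. Over 16 settings other than leaving out 1 array the median in the cord ran from -0.71 to -0.58 at 18 months. Leaving out the 4 arrays was chosen after seeing the data.

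Within a tissue, same-numbered replicates correlated over 0.1 across ages in 0 of 9 oculomotor pairs and 2 of 9 cord pairs. Both cord pairs joined 18 and 30 months, at 0.168 for replicate 1 and 0.45 for replicate 3. With the replicate block inside each tissue, 2 enzymes passed in the cord at 18 months and 0 in the test of any age difference in the cord. Between tissues all 3 same-numbered pairs correlated over 0.1 at 30 months. With a replicate block shared by the tissues at that age, added after seeing the data, 3 enzymes passed in the cord at 30 against 6 months, and the 3 calls between tissues at 30 months were kept.

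Between tissues at 6 months (9), 4 passed without the muscle-rich arrays, 5 with the muscle covariate, 5 with the myelin covariate, 2 by the study's rule and 7 to 9 without 1 array; at 18 months (2), 1 with a stricter filter and 1 by the study's rule; at 30 months (3), 1 by the study's rule and 2 to 3 without 1 array. Tm7sf2 (mean log2 signal 7.99) lay under the stricter filter's cut of 8.54, so its call between tissues was not tested in that setting. Medians that moved beyond the spread between replicates were, without the muscle-rich arrays, -0.48 between tissues at 6 months and 0.17 for the tissue difference in the change to 18 months. Without the 4 arrays they were -0.15 for the oculomotor nucleus at 30 against 6 months, 0.0013 at 30 against 18 months, -0.078 between tissues at 18 months and -0.36 at 30 months. With the 4 arrays as a block the first pair were -0.13 and 0.033, and with the myelin covariate the oculomotor median at 30 against 6 months was -0.15 and the tissue median at 30 months was -0.34. Leaving out 1 array, medians ran from -0.17 to -0.10 (oculomotor, 18 against 6 months), -0.15 to -0.045 (30 against 6 months), 0.0013 to 0.15 (30 against 18 months), -0.78 to -0.54, -0.32 to -0.078 and -0.36 to -0.19 between tissues at 6, 18 and 30 months, and 0.22 to 0.48 for the tissue difference in the change to 30 months. The cause of these shifts was not tested. Over all probe sets, 69 passed in the cord at 18 months, against 15 in separate fits, 40 with the replicate block and 127 with the 4 arrays as a block. At 30 months 21 passed, against 72 with that block. The share of all probe sets passing is not given for the other settings, so changes in their counts do not describe the enzymes alone.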
